A study of Mus musculus with 10 samples.

Results

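The first 2 days after *MAX* was switched off in mouse embryonic stem cells (ESCs) were examined on 3 expression arrays, out of 10 in the series. They were the array of untreated cells that the submitters named as the reference for the early time points, and the arrays made after 1 d and 2 d of doxycycline (Dox). All 3 held total RNA of *Max*-null ESCs, male cells of the 129SV strain in which both endogenous *Max* alleles were disrupted and survival rested on a *Max* cDNA under tetracycline-off control, so that Dox shut the cDNA down. The cells grew in conventional ESC medium with LIF and serum. A second untreated LIF+serum array, which was the reference for later days, and the 3 d and 4 d arrays were used only to place the values. Every gene with a probe set of its own symbol was read, 18193 genes in all, each from its brightest probe set.

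Values are log2 signals after robust multi-array normalization, and a step is the difference between a Dox array and the untreated array, so that a step of 1 is a 2-fold change. Each condition was 1 array, so no step has a replicate check and none was tested. The labels do not say whether the arrays came from separate cultures. In bulk RNA a gene can be higher because more cells express it or because each cell holds more of it, and these cannot be told apart.

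MAX is the obligate partner of the MYC proteins, which bind the E-box CACGTG as heterodimers with it and drive growth genes. MAX also pairs with MGA, and MAX-MGA is a DNA-binding arm of PRC1.6, a noncanonical Polycomb complex known for keeping germ cell genes silent in ESCs. MAX is thus shared by an activator and a repressor that can both read this short sequence.

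The *Max* probe set did not follow the treatment. It read 5.57 in untreated cells, 5.53 at 1 d and 5.60 at 2 d. Where this probe set sits relative to the targeted exons and the cDNA is not stated, so it checks nothing about the labels. The 10 ESC markers, among them *Pou5f1*, *Nanog* and *Sox2*, lay between 10.39 and 14.06 on the 3 arrays and none was 2-fold apart. The 9 fibroblast markers, which feeder cells would bring, lay between 2.93 and 6.88, and none was 2-fold apart either.

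The choice of untreated array weighed on the results more than the day did. The second untreated array was at least 2-fold above the first for 1055 genes (5.8% of 18193) and at least 2-fold below it for 409 (2.25%), which is more genes than either day of Dox set apart. The median step over all genes was -0.08 at 1 d, -0.10 at 2 d and -0.09 between the untreated arrays, and steps were not centred on it. The *Actb* control probe sets at the 3′ and 5′ ends of the transcript differed by 0.41 on the first untreated array, 0.56 at 1 d and 0.52 at 2 d, against 0.88 on the second untreated array. Whether RNA quality or set had a part in the untreated difference was not tested. The overall counts and those of the gene lists below are therefore given against the first untreated array, with the number that stays past 2-fold against both.

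At 1 d, 522 genes (2.87%) were at least 2-fold higher and 104 (0.572%) at least 2-fold lower than on the first untreated array. At 2 d the counts were 730 (4.01%) and 248 (1.36%). The counts of gene lists below are to be read beside these shares. Both days shared 371 higher genes (2.04%) and 27 lower ones (0.148%). A gene was assigned to a single day when it passed 2-fold on that day and took a log2 step of less than 0.5 in that direction on the other. By that rule 62 genes (0.341%) were higher and 25 (0.137%) lower at 1 d only, and 75 (0.412%) were higher and 118 (0.649%) lower at 2 d only. Set directly against each other, the 2 d array was at least 2-fold above the 1 d array for 84 genes (0.462%) and below it for 173 (0.951%). When a step had to pass 2-fold against both untreated arrays, 52 genes (0.286%) stayed higher and 24 (0.132%) lower at 1 d. At 2 d 27 (0.148%) stayed higher and 37 (0.203%) lower, and for both days together 11 (0.0605%) and 1 (0.0055%) remained. Of all genes past 2-fold at 1 d, 83.4% were higher with the first untreated array as reference and 35.2% with the second. At 2 d these shares were 74.6% and 33.2%.

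**Figure D1:**
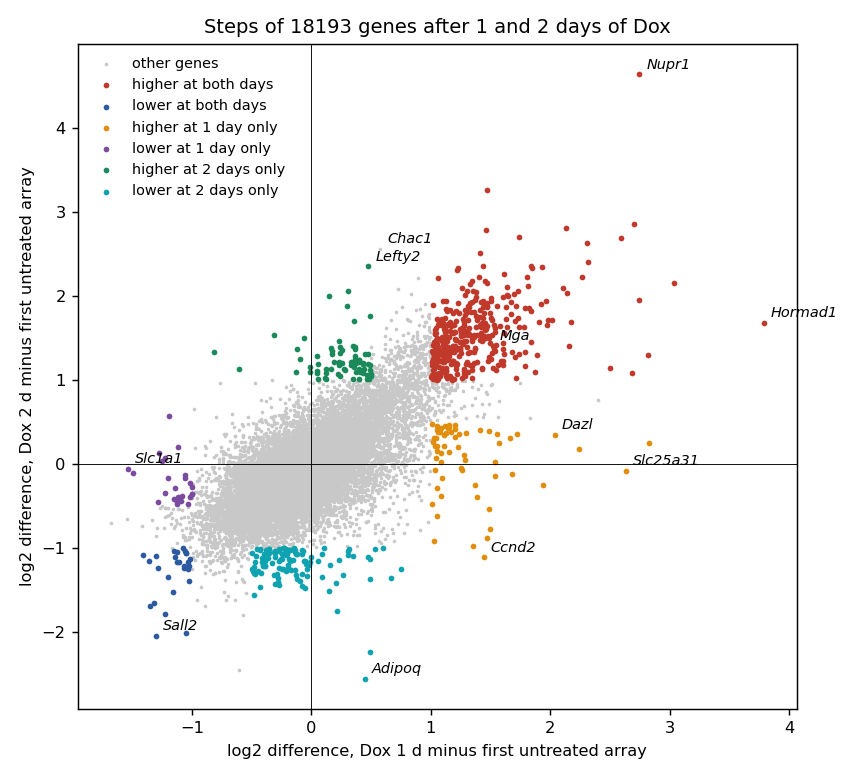
Log2 step at 1 d (x axis) against log2 step at 2 d (y axis), both from the first untreated LIF+serum array, 1 point per gene. Coloured points are the shared and single-day genes (*Ccnd2*, which meets both single-day rules, is drawn once), and germ cell genes such as *Hormad1*, *Slc25a31* and *Dazl* lie far to the right while *Nupr1* is high on both axes.

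Germ cell genes were higher at 1 d, and most of those were lower again at 2 d. Of 32 measured germ cell genes (35 listed), 16 were at least 2-fold higher at 1 d and 0 lower, with a median step of 0.95. At 2 d 7 were higher and 1 lower, with a median step of -0.01. Over all genes 2.87% were higher and 0.572% lower at 1 d, and 4.01% and 1.36% at 2 d. The list was chosen with earlier results of these data known. Of the 16, 10 also passed 2-fold against the second untreated array at 1 d, and 1 of the 7 did at 2 d. The median level of the list was 5.96 in untreated cells, 7.26 after 1 d, 5.92 after 2 d, 8.22 after 3 d and 9.14 after 4 d. The 2 d array thus stands below its neighbours in time.

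Because MAX binds CACGTG, RefSeq promoter windows (GRCm38.p6, 250 bases before to 50 bases after a gene's start) were searched for it. The motif reads the same on both strands. It was present in 7.15% of 32851 windows, and in at least 1 window of 10.2% of the 14452 measured genes with an entry. Of the germ cell genes at least 2-fold higher at 1 d, 13 had an entry and 10 of them (76.9%) held the motif, against 5 of the 14 (35.7%) that were under 2-fold. *Dazl*, *Stra8* and *Syce1* were the 3 without it. The share was 16.9% of all 420 genes with an entry that were higher at 1 d, 34.7% of the 49 higher at 1 d only, 15.8% of the 297 higher on both days and 13.0% of the 54 higher at 2 d only. Among lower genes it was 0 of 21 at 1 d only and 11 of 86 (12.8%) at 2 d only. Of all 27 germ cell genes with an entry 55.6% held it. So did 28.2% of the 39 genes higher at 1 d against both untreated arrays. These sets overlap, so the shares are not separate observations. *Hormad1*, *Stk31*, *Slc25a31*, *Taf7l*, *Ddx4* and *Tdrd1*, germ cell genes with the motif, also count among the genes higher at 1 d against both. Lists that took small steps held it too, with 24.4% of 41 ribosome biogenesis genes and 22.2% of 18 nucleotide synthesis genes. It was 17.6% of 17 genes of meiotic cohesin and recombination, 8.33% of 24 of the integrated stress response and 0 of 5 of the 2-cell embryo. A match describes the letters and is not evidence of binding.

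The 130 bases before the start of 6 germ cell genes that were higher at 1 d are shown with each CACGTG in capitals, to place the motif beside the values that follow, and *Dazl* is shown as a gene that was higher at 1 d with no such match. They lie on GRCm38.p6 at chr3:95559547-95559676, plus strand (*Hormad1*), chr6:49395409-49395538, plus strand (*Stk31*), chr3:40708741-40708870, plus strand (*Slc25a31*), chrX:134476491-134476620, minus strand (*Taf7l*), chr13:112652311-112652440, minus strand (*Ddx4*), chr10:88459457-88459586, plus strand (*Sycp3*) and chr17:50293621-50293750, minus strand (*Dazl*).
Hormad1: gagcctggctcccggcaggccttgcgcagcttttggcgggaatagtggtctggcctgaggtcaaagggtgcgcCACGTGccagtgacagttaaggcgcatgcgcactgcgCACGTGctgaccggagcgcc
Stk31: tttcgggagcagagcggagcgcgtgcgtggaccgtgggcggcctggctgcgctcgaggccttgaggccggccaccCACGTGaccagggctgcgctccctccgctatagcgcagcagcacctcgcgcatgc
Slc25a31: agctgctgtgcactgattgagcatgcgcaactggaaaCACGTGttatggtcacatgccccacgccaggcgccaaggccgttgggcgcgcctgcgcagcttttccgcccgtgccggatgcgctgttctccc
Taf7l: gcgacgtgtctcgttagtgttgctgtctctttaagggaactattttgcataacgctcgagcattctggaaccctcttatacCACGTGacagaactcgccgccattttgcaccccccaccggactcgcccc
Ddx4: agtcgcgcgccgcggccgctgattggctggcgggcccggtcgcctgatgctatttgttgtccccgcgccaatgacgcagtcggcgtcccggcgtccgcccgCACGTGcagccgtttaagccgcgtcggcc
Sycp3: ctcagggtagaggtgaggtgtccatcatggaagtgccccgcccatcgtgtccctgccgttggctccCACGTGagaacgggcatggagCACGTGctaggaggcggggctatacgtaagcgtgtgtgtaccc
Dazl: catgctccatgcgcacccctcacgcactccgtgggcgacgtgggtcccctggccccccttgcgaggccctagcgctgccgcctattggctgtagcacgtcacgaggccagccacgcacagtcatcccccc
In *Hormad1* the 2 motifs began 57 and 20 bases before the start, and in *Sycp3* 64 and 43 bases before it. The single motif began 93 bases before the start of *Slc25a31*, 49 before that of *Taf7l* and 29 before that of *Ddx4*.

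*Hormad1*, a meiotic chromosome axis protein, took the largest 1 d step among germ cell genes from the first untreated array, though not from the second, against which *Slc25a31* did with 2.85 and *Hormad1* had 1.40. It read 3.82 in untreated cells, 7.60 at 1 d and 5.50 at 2 d, a step of 3.79 and then of 1.68, and 6.20 on the second untreated array. The 1 d value was the only one of the early 3 above the second untreated array. *Stk31*, a kinase of the male germ line, read 4.49, 7.31 and 5.78 on the same arrays, and 5.56 on the second untreated array. Its 2 probe sets gave steps of 2.81 and 3.64 at 1 d. *Tex11*, which takes part in meiotic crossover formation, read 3.59, 6.33 and 5.54, and 4.88 on the second untreated array, so that both Dox values lay above both untreated ones. All these *Tex11* values, and the untreated values of *Hormad1* and *Stk31*, lay in the range of the fibroblast markers.

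A second set of germ cell genes was higher at 1 d only. *Slc25a31*, the ADP/ATP carrier of the testis, read 6.26 in untreated cells, 8.89 at 1 d and 6.18 at 2 d, a step of 2.63 followed by -0.08. Its 2 d value lay between the untreated values, the second being 6.04. *Taf7l*, a testis paralogue of a general transcription factor subunit, read 5.67, 7.90 and 5.84, against 5.70 on the second untreated array. *Dazl*, an RNA-binding protein of germ cells, read 6.32, 8.36 and 6.66, against 6.31 on the second untreated array, and its other probe set gave steps of 2.32 and 0.77. In all 3 genes the untreated arrays were close and the 1 d array alone was high. *Sycp1*, the central part of the synaptonemal complex, read 4.46, 6.13 and 4.34, but the second untreated array read 5.35, so its 1 d step was under 2-fold from there. *Gm364* behaved like *Slc25a31*, with 5.57, 8.39 and 5.81 and a second untreated value of 6.25. The untreated and 2 d values of all the genes in this set, and the 1 d value of *Sycp1*, lay in the range of the fibroblast markers.

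**Figure D2:**
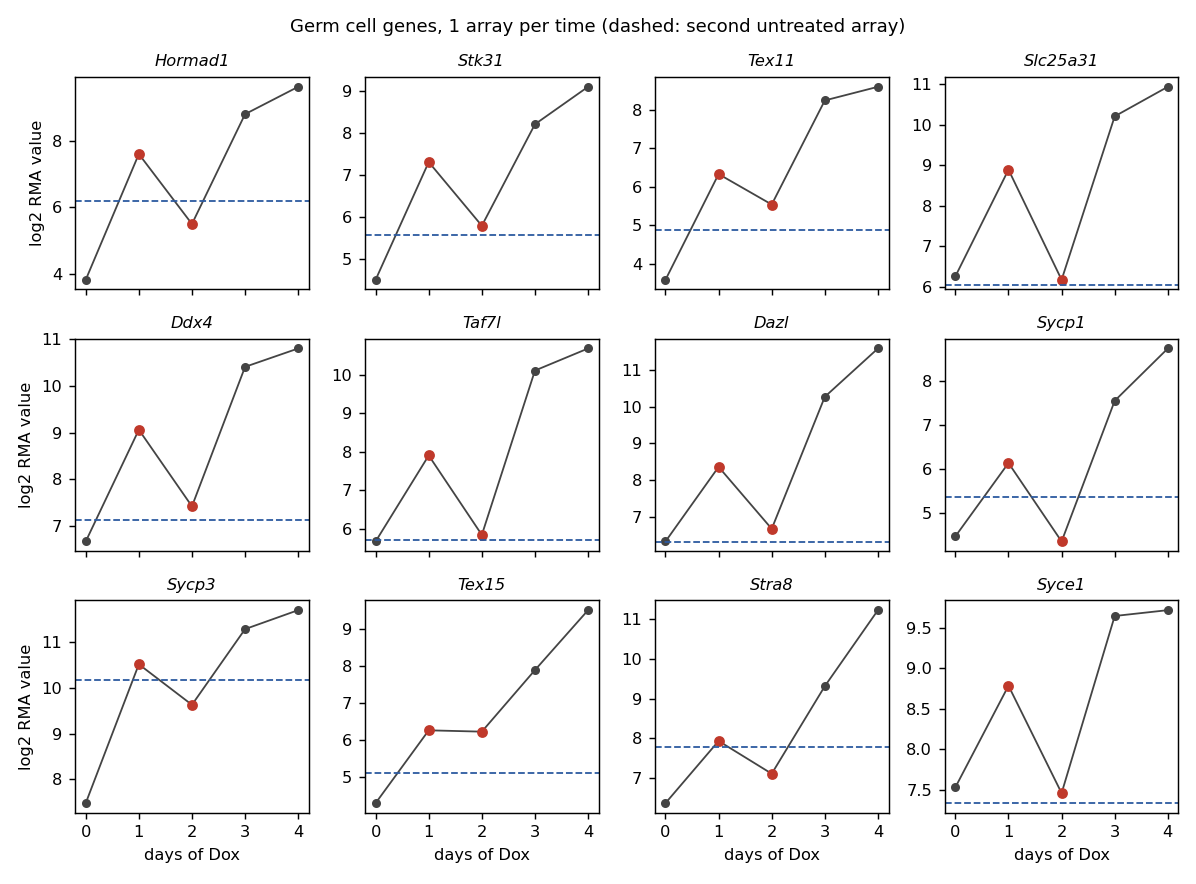
Log2 RMA value (y axis) of 12 germ cell genes on the first untreated array (0) and after 1 to 4 d of Dox (x axis), 1 array per point, with the 1 d and 2 d arrays in red and the second untreated array as a dashed line. In most panels the 1 d value is above the 2 d value, as for *Slc25a31* (8.89 and 6.18), and values are higher again at 3 d; *Tex15* is level at 6.25 and 6.22.

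Other germ cell genes were also higher at 1 d than at 2 d. *Ddx4*, the RNA helicase known as mouse Vasa, read 6.67, 9.06 and 7.42, with 7.13 on the second untreated array. The synaptonemal complex gene *Syce1* had steps of 1.26 and -0.07, the piRNA pathway gene *Tdrd1* of 1.25 and -0.05, and *Mael*, another gene of that pathway, of 1.04 and -0.07. *Rbm46*, an RNA-binding protein gene needed for meiosis and not among the listed genes (it was chosen after its values were seen), had steps of 2.69 and 1.08. From 1 d to 2 d, 12 of the 32 genes were at least 2-fold lower and 0 higher. Over all genes 0.951% were lower and 0.462% higher from 1 d to 2 d.

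Some germ cell genes departed from that course. *Tex15*, a gene of meiotic recombination and transposon silencing, stayed up, with 4.29, 6.25 and 6.22 and a second untreated value of 5.09. Its values lay in the range of the fibroblast markers. *Rnf17* and *Taf9b* had larger steps at 2 d (1.61 and 1.41) than at 1 d (1.24 and 1.02). *Sycp3*, a lateral element protein of the synaptonemal complex, read 7.48, 10.52 and 9.63, but 10.17 on the second untreated array, so its 2 d value lay below an untreated one. *Stra8*, the gatekeeper of meiosis that retinoic acid induces, read 6.36, 7.93 and 7.10, and 7.77 on the second untreated array. *Stra8* was thus 2-fold higher at 1 d only by the first untreated array, and its larger values came later, 9.31 at 3 d and 11.23 at 4 d. *Gpat2* was the gene that was lower at 2 d, with a step of -1.01 after 0.31. *Tdrkh*, *Rpl39l* and *Dnd1* had steps below -0.5 at 1 d (-0.77, -0.69 and -0.54) and did not reach 2-fold.

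The wider meiotic genes were nearly level. Of 18 measured genes of meiotic cohesin and recombination, 1 was at least 2-fold higher at 1 d, the cohesin subunit *Stag3* (steps of 1.56 and 0.55), and 0 at 2 d, and *Stag3* did not stay past 2-fold against both untreated arrays. The list medians were -0.03 and 0.04. The 10 measured genes of the 2-cell embryo had medians of 0.07 and -0.15 with none past 2-fold on either day, and a median of 2.02 at 3 d.

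*Mga*, the partner of MAX in PRC1.6, was itself higher on both days. It read 7.56 in untreated cells, 9.07 at 1 d and 8.96 at 2 d, against 7.36 on the second untreated array. Both Dox values lay above both untreated ones, and the 3 d and 4 d arrays read 9.19 and 9.33. Its 5 probe sets were not alike, with steps from 0.06 to 1.68 at 1 d and from -0.04 to 1.66 at 2 d. No other of the 13 measured PRC1.6 genes passed 2-fold. *E2f6*, the E2F subunit of the complex, had steps of 0.79 and -0.55, but its other probe set gave -0.47 at 1 d. *Pcgf6* and *L3mbtl2*, also subunits, had steps of -0.41 and -0.60 at 1 d.

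Among the 13 measured genes of the MYC network, *Mga* was the only one past 2-fold at 1 d. *Myc* read 9.10 in untreated cells, 9.63 at 1 d and 8.08 at 2 d, and 9.48 on the second untreated array, so that the 2 d value was below both untreated values by over 2-fold. On the 3 d array it read 9.93. *Mxd3*, a repressor partner of MAX, also passed 2-fold at 2 d with a step of -1.004, which its other probe sets did not reach, and *Mycn* had steps of 0.42 and -0.06.

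The 371 genes that were higher on both days had a median level of 6.28 on the first untreated array, 7.57 at 1 d and 7.77 at 2 d, and of 7.71 on the second untreated array. Of these, 11 were 2-fold higher on both days against both untreated arrays. *Nupr1*, a stress-induced chromatin protein, had the largest shared step, from 4.59 to 7.34 at 1 d and 9.23 at 2 d. At 9.26, the second untreated array lay above both days of Dox. The nucleosome-binding protein gene *Hmgn5* read 4.72, 7.31 and 7.40 with a second untreated value of 7.29, and *Depdc1a* read 4.31, 7.01 and 7.16 with 7.25. *Nupr1* was lowest on the first untreated array, with the 1 d array between it and the others. For *Hmgn5* and *Depdc1a* the first untreated array alone was low. The same held for *Trpm7*, an ion channel joined to a kinase (5.84, 7.98 and 8.64, second untreated 8.41), and in part for *Esco1*, a cohesin acetyltransferase (5.41, 7.52 and 7.50, second untreated 6.83). The probe sets of *Trpm7* ranged from 0.31 to 2.13 at 1 d.

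Zinc finger genes named Zfp formed part of this class. Of 339 measured, 41 (12.1%) were higher on both days, against 2.04% of all genes, and 0 of these stayed so against both untreated arrays. *Zfp760* read 4.73, 7.04 and 7.13, against 7.34 on the second untreated array. *Zfp995*, *Zfp935* and *Zfp820* had 1 d steps of 2.31, 2.27 and 2.14. *Zfp935*, at 5.07 and 5.03, lay above the second untreated value of 4.44, and *Zfp995*, at 5.37 and 5.70, below its value of 6.78.

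Noncoding RNAs and splicing genes were higher on both days and, for the most part, on the second untreated array too. The noncoding list, labelled nuclear, also holds host genes of small nucleolar RNAs. Of 14 measured noncoding RNAs, 8 were at least 2-fold higher at 1 d and 9 at 2 d, with list medians of 1.05 and 1.23, but the second untreated array was higher by a median of 1.31. Against both untreated arrays 0 stayed past 2-fold at 1 d and 1 at 2 d. That one was *Xist*, the RNA of X inactivation, which read 7.49, 8.91 and 9.12 against 7.93, by the 1 of its 3 probe sets that moved. *Snhg1*, a host gene of small nucleolar RNAs, had steps of 1.49 and 1.79 over the first untreated array, and all 5 of its probe sets were past 2-fold on both days. *Neat1*, the scaffold of paraspeckles, had steps of 1.79 and 1.33, which its other probe set did not share (-0.18 and -0.19). Of 22 measured splicing genes, 5 and 4 were higher, and the second untreated array was 2-fold above the first for 4. The SR protein kinase *Clk1* had steps of 1.42 and 1.53 and the splicing factor *Luc7l3* of 1.22 and 1.38. Of 16 measured genes of other Polycomb complexes and H3K9 silencing, with medians of 0.05 and 0.08, 3 were higher on each day, and none of these stayed so against both untreated arrays. They were *Suz12*, *Mtf2* and *Bmi1*, Polycomb genes with steps between 1.14 and 1.55. *Ehmt2*, an H3K9 methyltransferase, was 2-fold lower at 2 d, with 10.66, 10.27 and 9.44 against 9.86 on the second untreated array. No gene of the splicing list stayed past 2-fold against both untreated arrays.

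The 11 genes that passed on both days against both untreated arrays, picked after their values were seen, were *Tex13b*, *Tex15*, *Rex2*, *Uba3*, *Abca1*, *Mga*, *Gsdme*, *Bbip1*, *Taok1*, *Tax1bp1* and *Mbnl2*. *Uba3*, the catalytic subunit of the NEDD8-activating enzyme, was the brightest, with 8.95 in untreated cells, 10.73 at 1 d, 10.58 at 2 d and 9.52 on the second untreated array. Its 3 probe sets gave steps from 1.78 to 1.94 at 1 d. *Abca1*, a cholesterol exporter, read 8.43, 9.97 and 9.55 against 8.29, and its 3 probe sets gave steps from 1.54 to 1.84 at 1 d. At 2 d the probe sets gave 1.63 to 1.75 for *Uba3* and 1.12 to 1.36 for *Abca1*. *Uba3* and *Abca1* were thus past 2-fold over the first untreated array on both days by every probe set. *Bbip1*, a subunit of the BBSome of cilia, read 7.40, 8.85 and 8.89 against 6.94. *Tax1bp1*, an autophagy receptor, read 8.76, 10.05 and 9.95 against 8.92. *Gsdme*, a pore-forming gasdermin, read 6.85, 8.36 and 8.59 against 7.01. In *Bbip1*, *Tax1bp1* and *Gsdme* at least 1 further probe set stayed under 2-fold on at least 1 day. The kinase gene *Taok1* and the splicing regulator gene *Mbnl2* had probe sets as low as 0.33 and -0.24 at 1 d. *Tex13b*, an X-linked testis gene, read 4.63, 7.13 and 5.77 against 2.82.

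**Figure D3:**
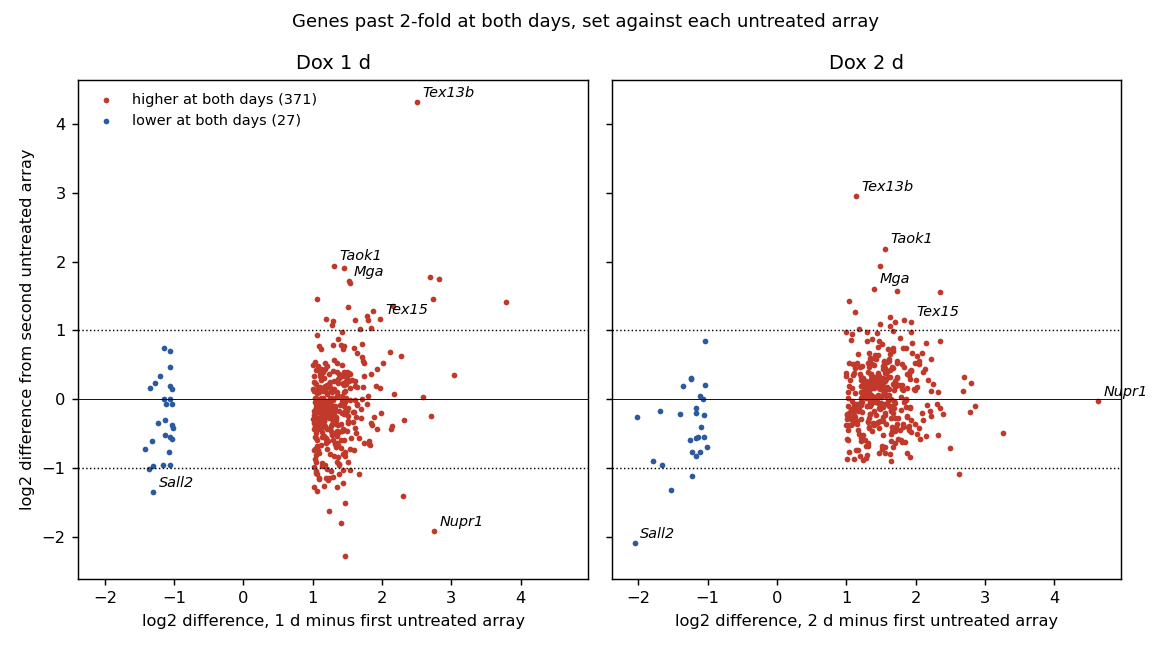
Log2 difference from the second untreated array (y axis) against log2 difference from the first (x axis) for the genes past 2-fold on both days, 371 higher in red and 27 lower in blue, for 1 d (left) and 2 d (right). Dotted lines mark 2-fold against the second array; most red points lie between them, *Nupr1* is at or below 0, and *Mga* and *Tex15* are among the points above the upper line.

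The 27 genes lower on both days had a median level of 7.49 in untreated cells, 6.40 at 1 d and 6.24 at 2 d, and 6.47 on the second untreated array. *Sall2*, a zinc finger transcription factor, was the one that stayed 2-fold lower against both untreated arrays. It read 5.73 in untreated cells, 4.42 at 1 d and 3.68 at 2 d, and 5.77 on the second untreated array, all in the range of the fibroblast markers. *Thop1*, a cytoplasmic peptidase, read 9.86, 8.50 and 8.70 against 9.52, so its 1 d value was 2-fold below both untreated arrays. Its other probe set gave -0.18 and -0.12. *Gadd45gip1*, a mitochondrial ribosome protein also called CRIF1, read 9.76, 8.60 and 8.23 against 9.55, and *Exosc4*, a subunit of the RNA exosome core, read 9.99, 8.86 and 8.82 against 9.39. *Sall2*, *Thop1*, *Gadd45gip1* and *Exosc4* were lower on each Dox array than on either untreated one. By contrast *Cnn2*, a calponin that binds actin, read 9.12, 7.77 and 7.43, and the second untreated array was as low at 7.61. *Car4*, a membrane carbonic anhydrase, and *Igbp1b* likewise had second untreated values (4.86 and 3.40) below both days of Dox. *Prr5*, a subunit of mTORC2, had steps of -1.23 and -1.79, the mucin *Muc3* of -1.32 and -1.66, and *Snai3*, of the Snail family, of -1.11 and -1.17.

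Other genes were high at 1 d and not at 2 d. *Ccnd2*, which encodes cyclin D2, read 8.85 in untreated cells, 10.29 at 1 d and 7.74 at 2 d, a step of 1.44 followed by -1.11. All 7 probe sets took part, with steps from 1.02 to 1.89 at 1 d and from -1.78 to -0.998 at 2 d. Untreated cells of the second array read 7.50, near the 2 d value. The 1 d array was the highest of the 4 and, from 1 d to 2 d, *Ccnd2* fell by 2.55. *Bmp4*, a ligand of the BMP pathway, had steps of 1.49 and 0.39, and *Bhlhe40*, a circadian repressor that itself binds E-boxes, of 1.83 and 0.55. *Bmp4* stayed past 2-fold at 1 d against both untreated arrays. *Bhlhe40* did not, nor did any of the 12 measured circadian genes, and its 2 d step was just outside the rule for 1 d only. *Anxa1*, an annexin, read 7.54, 9.20 and 7.84 against 7.91 on the second untreated array, but its other probe set did not move (-0.06). *Dnaaf4*, a dynein assembly factor, had steps of 1.72 and 0.36 and another probe set at 0.14. *Tchh*, a hair follicle protein, went from 2.24 to 4.18, no brighter than the fibroblast markers.

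The 25 genes lower at 1 d only were dim, with a median level of 5.73 in untreated cells, and 6 of them had a mean log2 value of at least 6. *Slc1a1*, a glutamate transporter, read 6.49 in untreated cells, 4.96 at 1 d and 6.44 at 2 d, with 7.19 on the second untreated array, so 1 d alone was low. *Sdc4*, the heparan sulphate proteoglycan syndecan 4, read 9.91, 8.42 and 9.80, but the second untreated array read 8.46. *Prrc1* read 9.93, 8.71 and 9.59 against 10.71. *Pkhd1*, a cilium protein, and *Mfsd8*, a lysosomal membrane protein, had 1 d steps of -1.23 and -1.20, *Efhc2* of -1.25 and *Lce1b*, of the cornified envelope, of -1.29.

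At 2 d the genes of the integrated stress response stood out. This pathway reduces translation initiation and raises ATF4, which drives genes for amino acid supply. Of 27 measured genes, 3 were at least 2-fold higher at 1 d and 12 at 2 d, where 2.87% and 4.01% of all genes were. The list medians were 0.03 and 0.85, with 0 lower on either day. The second untreated array was 2-fold above the first for 11 of the 27, with a median of 0.77, and 0 of the 12 stayed past 2-fold against it. From 1 d to 2 d, which needs neither untreated array, 8 genes were at least 2-fold higher, 0 lower, and the median step was 0.73. Over all genes 0.462% were 2-fold higher and 0.951% lower from 1 d to 2 d.

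*Chac1*, which degrades glutathione and is a target of ATF4, read 6.42 in untreated cells, 6.99 at 1 d and 8.97 at 2 d, and 8.35 on the second untreated array. *Trib3*, a pseudokinase that ATF4 and CHOP induce, read 8.26, 8.30 and 9.54 against 8.69. The 1 d step was 0.58 for *Chac1* and 0.04 for *Trib3*, and at 2 d both genes lay above both untreated values, by under 2-fold from the second. *Vldlr*, a lipoprotein receptor, read 4.59, 4.89 and 6.64 against 6.57, and its 6 probe sets ranged from 0.33 to 2.06 at 2 d. *Atf4* itself was already up at 1 d, with 10.56, 11.72 and 12.14 against 11.97. *Pck2*, mitochondrial phosphoenolpyruvate carboxykinase, read 7.13, 8.19 and 9.34 against 9.52. *Atf4* and *Pck2* were thus higher on both days, with the second untreated array in the range of the 2 d array.

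Genes that supply amino acids and charge tRNAs were also higher at 2 d than on the first untreated array. Of 18 measured cytosolic aminoacyl-tRNA synthetases, 0 were 2-fold higher at 1 d and 4 at 2 d, and the list median went from -0.04 to 0.39, against 0.12 for the second untreated array. At 2 d 4.01% of all genes were higher, and none of the 4 synthetases stayed past 2-fold against both untreated arrays. *Nars*, for asparagine, read 10.88 in untreated cells, 11.33 at 1 d and 12.18 at 2 d, with 11.26 on the second untreated array, and both its probe sets were alike (1.30 and 1.28 at 2 d). *Lars*, *Tars* and *Cars*, for leucine, threonine and cysteine, had 2 d steps of 1.31, 1.11 and 1.07. The 2 d array was the highest of the 4 for each of these synthetases. Of 10 measured genes of serine and one-carbon metabolism, 0 and 3 were higher, where 2.87% and 4.01% of all genes were. Their medians were 0.05 and 0.69. The second untreated array was also 2-fold above the first for 3 of the 10, with a median of 0.70, and none stayed past 2-fold against both. *Psph*, the last enzyme of serine synthesis, read 8.92, 8.83 and 10.16 against 10.13. *Psat1*, the enzyme before it, had steps of 0.05 and 1.08, and *Aldh1l2*, a mitochondrial folate enzyme, of 0.30 and 1.87.

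**Figure D4:**
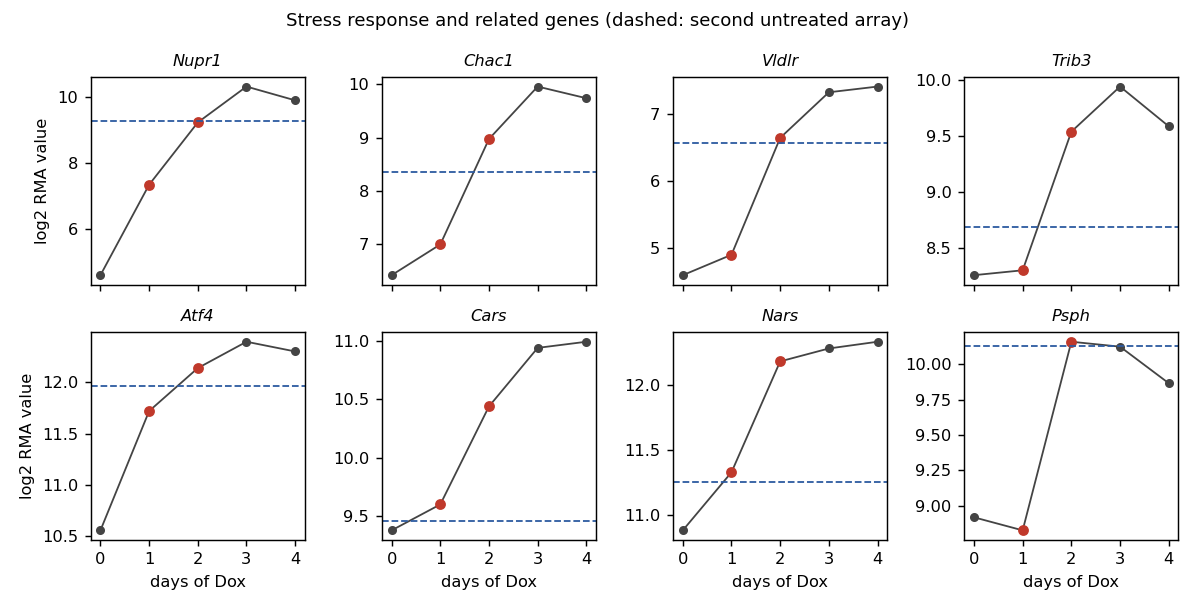
Log2 RMA value (y axis) of 8 genes of the stress response, tRNA charging and serine synthesis on the first untreated array (0) and after 1 to 4 d of Dox (x axis), 1 array per point, with the 1 d and 2 d arrays in red and the second untreated array dashed. *Vldlr*, *Trib3* and *Psph* are near the untreated value at 1 d and high at 2 d, *Chac1* takes a step of 0.58 before 2.56, and the dashed line is near the 2 d value for *Nupr1* (9.26 and 9.23) but not for *Nars* (11.26 and 12.18).

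Outside these lists the NODAL antagonists *Lefty1* and *Lefty2* were higher at 2 d only. *Lefty2* read 7.68 in untreated cells, 8.15 at 1 d and 10.03 at 2 d, and *Lefty1* 9.89, 10.38 and 11.65. Values on the second untreated array were 10.69 for *Lefty2* and 11.62 for *Lefty1*, in the range of the 2 d array. *Pof1b*, an actin-binding protein of epithelia, read 4.84, 4.98 and 6.83 against 6.05. *Acss1*, a mitochondrial acetyl-CoA synthetase, had a 2 d step of 1.46, *G0s2*, an inhibitor of triglyceride lipolysis, of 1.49, and *Klhl5* of 1.53. Each of the 3 was about as high on the second untreated array (1.91, 1.43 and 1.63 above the first).

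Of the 118 genes lower at 2 d only, 27 stayed 2-fold lower against both untreated arrays. Targets of growth factor signalling were among the 118. Of those named below, *Smad6* and *Phlda1* were also among the 27, and *Id1* and *Id3* were not. *Id1* and *Id3*, BMP targets that inhibit basic helix-loop-helix factors, read 9.89, 9.77 and 8.52, and 9.72, 9.72 and 8.62. *Smad6*, an inhibitor of the BMP pathway and a target of it, read 7.10, 6.82 and 5.65, and its second untreated value differed from the first by -0.10. The 2 d value was the lowest of the 4 for *Id1*, *Id3* and *Smad6*, the second untreated values of *Id1* and *Id3* being 9.37 and 9.17. Of the 11 measured BMP and TGF-beta targets 3 were thus lower at 2 d and 2 higher, the *Lefty* genes, beside 1.36% lower and 4.01% higher of all genes. Against both untreated arrays 1 stayed lower, *Smad6*, and 0 higher.

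Of 10 measured ERK feedback genes, 0 were lower at 1 d and 3 at 2 d, where 0.572% and 1.36% of all genes were. Of the 3, 1 stayed so against both untreated arrays. That one, *Phlda1*, read 6.87 in untreated cells, 6.70 at 1 d and 5.61 at 2 d against 6.97, and *Ier3*, an immediate early gene, 8.60, 7.96 and 6.97 against 7.47. *Etv4*, an ETS factor downstream of FGF, had a 2 d step of -1.06, and of -0.20 by its other probe set. The WNT-associated genes *Lef1* and *Sp5* had 2 d steps of -1.04 and -1.10 after 0.31 and 0.35 at 1 d. *Jun*, an AP-1 subunit, had steps of -0.22 and -1.28. None of the 10 measured WNT targets or the 15 immediate early genes stayed 2-fold lower at 2 d against both untreated arrays.

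Among the largest steps of the class, *Adipoq*, which encodes adiponectin, read 6.41, 6.85 and 3.85, and *Skor1*, a corepressor, read 6.68, 7.17 and 4.44. The second untreated array lay in between for both, at 5.02 and 5.64. *Selenoh*, a nucleolar selenoprotein, was the brightest, with 12.18, 11.69 and 10.62 against 11.66. *Pax8*, a paired box transcription factor, read 5.67, 5.62 and 4.19 against 5.57, and *Vstm5* 6.24, 6.39 and 4.72 against 5.78. *P3h4*, a collagen-modifying protein of the endoplasmic reticulum, and *Exoc3l* had 2 d steps of -1.75 and -1.45, and the second untreated array differed from the first by -1.23 and -0.88.

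Genes of the actin cytoskeleton and adhesion had lower medians, more so at 2 d. Of 19 measured, 2 were at least 2-fold lower at 1 d and 5 at 2 d, where 0.572% and 1.36% of all genes were. The medians were -0.16 and -0.42, and the second untreated array was 2-fold below the first for 5. None stayed 2-fold lower against both. In the other direction 1 gene of the list, *Anxa1*, was 2-fold higher at 1 d, where 2.87% of all genes were. It stayed so against both untreated arrays, though its other probe set did not move. *S100a6*, a calcium-binding protein, had steps of -0.60 and -2.46, *Myl9*, a myosin light chain, of -1.05 and -2.02, and *Anxa2*, an annexin, of -0.57 and -1.80. Between the untreated arrays, second minus first, these genes differed by -1.59, -1.76 and -1.09.

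Pluripotency genes were within 2-fold of the first untreated array on both days. The 12 measured core genes had medians of 0.15 and -0.04 and the 14 naive genes of 0.19 and 0.46, with none past 2-fold. The second untreated array had a naive median of 0.55, and 3 genes of these lists were over 2-fold from it on both days. They were *Lin28a* (10.85, 11.06 and 10.84 against 7.94), *Trim71* (9.65, 9.86 and 9.53 against 10.90), which bind RNA, and *Tbx3* (8.07, 7.98 and 8.85 against 9.89). The other probe set of *Lin28a* was within 2-fold of it. *Pou5f1* read 12.58, 12.58 and 12.36, and *Nanog* 11.22, 11.47 and 11.48. *Tfcp2l1* and *Tbx3*, both naive state factors, had 2 d steps of 0.79 each. The 10 primed epiblast genes had medians of -0.45 and -0.79, with 2 lower at 2 d and none of them past 2-fold against both untreated arrays. *Pou3f1*, a POU factor of the epiblast, read 8.00, 7.57 and 6.53 against 6.99 on the second untreated array, and *Dnmt3b*, a de novo DNA methyltransferase, 11.65, 11.07 and 10.74 against 11.36.

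Growth genes, a textbook output of MYC-MAX, took small steps. The 47 measured ribosome biogenesis genes had medians of -0.32 and -0.21, with 2 and 1 at least 2-fold lower, 0 higher and none past 2-fold against both untreated arrays, and medians of -0.69 at 3 d and -0.73 at 4 d. *Polr1b*, a subunit of RNA polymerase I, read 10.31 in untreated cells, 9.16 at 1 d and 9.27 at 2 d, but 8.42 on the second untreated array. *Noc2l*, a nucleolar protein, read 9.29, 8.22 and 8.43 against 9.20, and its other probe set had a 1 d step of -0.43. The 28 cytosolic ribosomal protein genes had medians of -0.02 and -0.01 with none past 2-fold, and the 20 nucleotide synthesis genes of -0.21 on both days. The second untreated array differed from the first by a median of -0.15 for ribosome biogenesis and -0.22 for nucleotide synthesis. Against the second, the medians were -0.12 and 0.002 for ribosome biogenesis and -0.02 and -0.03 for nucleotide synthesis. Among the nucleotide synthesis genes *Adsl*, a purine synthesis enzyme, had steps of -0.89 and -0.64, and thymidine kinase *Tk1* of -0.31 and -1.05.

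Mitotic genes were higher in part. Of 18 measured, 3 were at least 2-fold higher at 1 d and 6 at 2 d, where 2.87% and 4.01% of all genes were, with a list median of 0.18 on each day and -0.07 for the second untreated array. The second untreated array was 2-fold above the first for 3 of the 18. Against both untreated arrays 0 stayed past 2-fold at 1 d and 1 at 2 d. That one, *Kif11*, a spindle kinesin, had steps of 0.80 and 1.18, while the second untreated array differed from the first by -0.27. Its 3 probe sets gave 1.05 to 1.42 at 2 d. *Cenpe*, a kinetochore motor, and *Ndc80*, a kinetochore protein, had 2 d steps of 1.68 and 1.52, and second untreated values 1.22 and 0.72 above the first.

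**Figure D5:**
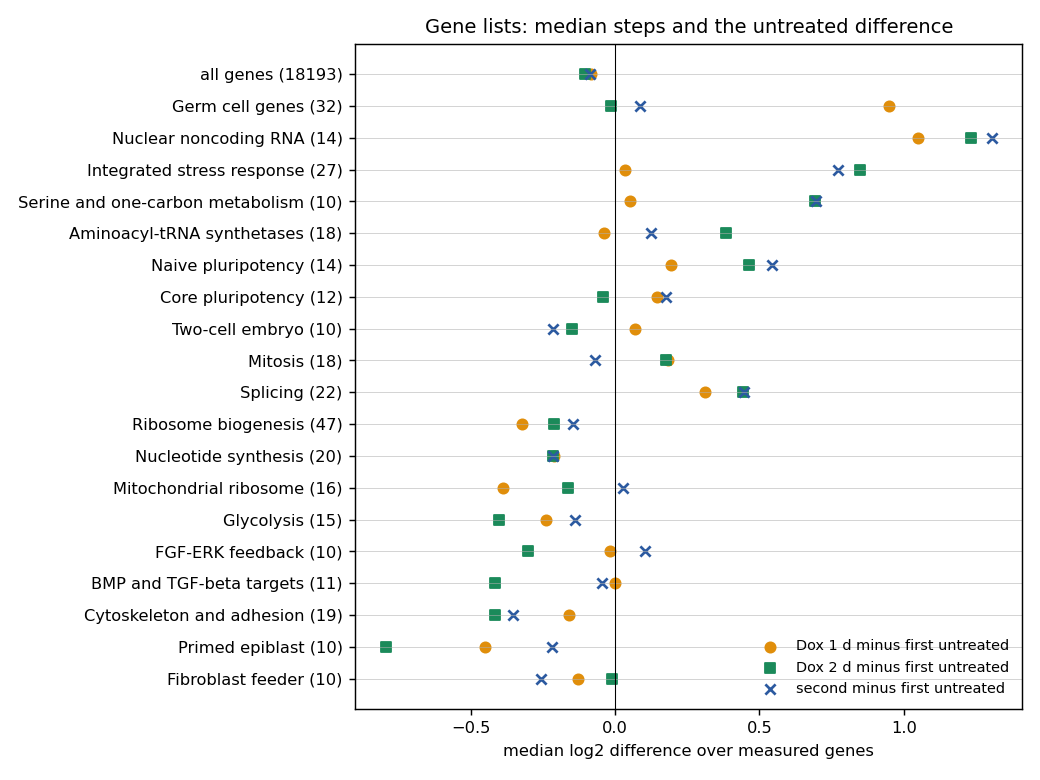
Median log2 difference over the measured genes (x axis) of all genes and of 19 gene lists (y axis, number measured in brackets), for 1 d and 2 d of Dox and for the second untreated array, each minus the first untreated array. Germ cell genes are at 0.95 at 1 d and near 0 for both other comparisons, the integrated stress response is at 0.85 at 2 d and 0.77 between the untreated arrays, and the list labelled nuclear noncoding RNA, which also holds host genes of small nucleolar RNAs, is above 1 in all 3.

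Genes next to the 2-fold line show how fine the counts are. At 1 d *Bpnt2* was inside with a step of 1.00 and *Nxt2* outside with 0.9993, and at 2 d *Dab1* was inside at -1.0009 and *Abca9* outside at -0.9992. Of the 522 genes higher at 1 d, 375 had more than 1 probe set, and in 176 of these another probe set was also past 2-fold. For the 104 lower genes these counts were 50 and 4.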

How the data were processed

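The authors hybridised biotin-labelled cRNA of each sample to an Affymetrix mouse genome array and deposited log2 values made by robust multi-array analysis (RMA), for which the submitters' processing notes name the affy package. Versions were not given in the sources used here, nor which arrays were normalized together. The deposited table held 45101 probe sets, of which 64 were controls, 34945 carried 1 gene symbol in GEO's platform annotation, 932 several and 9160 were not listed there. Probe sets with several symbols or none were left out. Each of the 18193 genes was read from its brightest probe set, by the mean over the 3 arrays, and 9010 genes had more than 1 probe set. Steps are differences of log2 values and were counted at 2-fold. With 1 array per condition no test, error or p-value was computed. The arrays carry no depth, and their number limits the precision. The counting code was run on simulated data with planted steps well past 2-fold and little noise. That run checks the code and says nothing about the reliability of the counts.

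The members, gene lists (59) and rules were chosen with earlier results of these data known. The text names the 10 genes with the largest smaller step of both days in each direction, the 8 largest single-day steps in each direction, up to 4 members of a list with the largest steps, any gene of the MYC network, PRC1.6 and germ cell lists, and further list members to show genes that did not pass. Genes named outside these rules, such as *Rbm46* and those passing against both untreated arrays, were chosen after their values were seen. Gene models without a name of their own were mostly left unnamed. Promoter windows came from RefSeq (GRCm38.p6) by gene symbol, and 14452 measured genes matched. Alternatives were another reference, filter, probe set rule, normalization or fold. Python 3.11.15, pandas 2.3.3, numpy 2.4.6 and matplotlib 3.10.9 were used.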

Additional observations from a re-analysis of the deposited data

Results flagged for a closer look

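*Ccnd2*, the gene of cyclin D2, was past 2-fold in opposite directions on the 2 days, with a log2 step of 1.44 at 1 d and of -1.11 at 2 d from the first untreated array. Each value is 1 array, and the difference between the days was not tested.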

How the results depend on the processing

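No paired analysis was possible because each group is 1 array, and no array can be left out. All counts follow the order higher and lower at 1 d, higher and lower at 2 d, higher and lower on both days, higher and lower at 1 d only, and higher and lower at 2 d only, where the values reported above were 522, 104, 730, 248, 371, 27, 62, 25, 75 and 118. With the second untreated array as reference they were 272, 501, 207, 416, 103, 204, 81, 93, 16 and 75, and the share of higher genes among all past 2-fold was 35.2% at 1 d and 33.2% at 2 d. With both untreated arrays averaged they were 131, 98, 160, 126, 41, 22, 55, 38, 46 and 68, with shares of 57.2% and 55.9%. Past 2-fold against both untreated arrays, an alternative chosen after seeing the data, they were 52, 24, 27, 37, 11, 1, 26, 11, 4 and 27. Among genes with a mean log2 value of at least 6 the counts that moved by over 1.5 times were 44 lower at 1 d, 155 lower at 2 d, 16 lower on both days, 36 higher and 6 lower at 1 d only, and 49 higher at 2 d only. With the mean of all probe sets of a gene they were 324, 63, 477, 162, 213, 14, 37, 13, 60 and 78. Counted as probe sets in place of genes they were 1163, 166, 1674, 415, 837, 41, 112, 47, 188 and 199. At 3-fold they were 76, 1, 176, 14, 45, 0, 10, 1, 13 and 7, with shares of 98.7% and 92.6% higher, and at 1.5-fold 1573, 1250, 1770, 1845, 1080, 599, 256, 261, 256 and 579, with shares of 55.7% and 49.0%. A further quantile normalization of the 3 arrays moved no count by over 1.5 times.

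Among the named genes whose step from the first untreated array was past 2-fold, the step from the second had the opposite sign at 1 d for *Nupr1* (-1.92), *Zfp995* (-1.40), *Pck2* (-1.33), *Luc7l3* (-0.61), *Snhg1* (-0.46), *Trpm7* (-0.44), *Zfp820* (-0.39), *Zfp760* (-0.30), *Atf4* (-0.25), *Depdc1a* (-0.25), *Cenpe* (-0.12), *Bmi1* (-0.040) and *Suz12* (-0.027), and for *Polr1b* (0.74), *Myl9* (0.71), *Car4* (0.34), *Igbp1b* (0.24) and *Cnn2* (0.16). At 2 d it did for *Zfp995* (-1.08), *Hormad1* (-0.70), *Lefty2* (-0.67), *Sycp3* (-0.53), *Zfp820* (-0.51), *Luc7l3* (-0.46), *Acss1* (-0.45), *Neat1* (-0.41), *Zfp760* (-0.21), *Pck2* (-0.18), *Snhg1* (-0.15), *Klhl5* (-0.094), *Depdc1a* (-0.092) and *Nupr1* (-0.030), and for *Polr1b* (0.84), *Igbp1b* (0.29), *Ccnd2* (0.24) and *Car4* (0.19). The median of the noncoding RNA list became -0.45 at 1 d and -0.15 at 2 d. Averaging the untreated arrays put *Pck2* at -0.14 at 1 d, and averaging all its probe sets put *Dab1* at 0.36 at 2 d. The cause of the difference between the untreated arrays was not tested. The number of arrays limits the precision of every step, and values up to 6.88 lie within or below the range of the fibroblast markers.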
